A study of Homo sapiens with 4 samples.

Results

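The replication-dependent histone genes were followed in BLaER1, a line of human B cell leukaemia, before and after its conversion into macrophage-like cells. The genes were taken by symbol from the 58302 gene rows of the deposited table: those starting with HIST1H, HIST2H, HIST3H or HIST4H were kept, and 11 rows whose symbols mark them as pseudogenes were left out. This gave 76 rows, with 6 for H1, 17 for H2A, 22 for H2B, 16 for H3 and 15 for H4. By cluster, 56 lay in HIST1, 15 in HIST2, 4 in HIST3 and 1 in HIST4. In the GENCODE 29 annotation 71 were protein-coding, 4 were still pseudogenes (HIST2H2BA, HIST2H2BB, HIST2H3DP1 and HIST3H2BA), and 1 identifier (HIST2H2BC) was not found. The symbol HIST1H3D stood on 2 rows.

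Each stage, undifferentiated and differentiated, was represented by 2 libraries of total RNA. For differentiation the cells were given IL-3 (10 ng/ml), M-CSF, whose dose the wording of the labels leaves unclear, and oestradiol (100 nM) for 5 to 6 days. Cells of both stages come from 1 line, which carries the transcription factor C/EBPα fused to the oestrogen receptor's hormone-binding domain, so the stages differ in the hormone and the cytokines and not in the transgene. Whether a stage's 2 libraries are separate cultures is not in the labels, so the p-values reflect the variation among these libraries alone, and it may be technical.

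Replication-dependent histone genes supply the histones that package newly copied DNA, and their mRNAs accumulate in S phase and are degraded when DNA synthesis stops. Most have no intron, and their mRNAs usually end in a conserved stem-loop in place of a poly(A) tail. The stem-loop-binding protein SLBP and the U7 small nuclear RNP direct the cut behind it. Libraries made from total RNA can hold such mRNAs, which a selection for poly(A) would mostly lose.

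The stem-loop was found in a GENCODE 29 transcript of 34 of the 75 annotated genes, and 6 different 16-base versions occurred. The most frequent, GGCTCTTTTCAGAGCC, was present in 19 genes. Many of the other gene models end at or near the coding region, so a missing stem-loop says only that the annotated model does not hold these letters. Of the genes shown here, chosen to set genes with large and small differences side by side, the stem-loop is in capitals.
HIST1H2BL: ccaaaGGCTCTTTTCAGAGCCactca
HIST1H2AC: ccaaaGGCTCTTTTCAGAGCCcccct
HIST2H2AA4: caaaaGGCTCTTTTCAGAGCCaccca
HIST1H2BD: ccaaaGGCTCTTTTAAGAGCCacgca
HIST1H4J: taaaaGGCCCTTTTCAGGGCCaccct
HIST4H4: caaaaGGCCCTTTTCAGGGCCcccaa

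Promoters of 60 of the 76 genes were matched to RefSeq (build GRCh38.p14), each as the 300 bases from 250 before to 50 after the first listed start. The 4 windows printed here belong to the genes that set the extremes of the H2B and H1 results: HIST1H2BM had the largest fall of all members and HIST1H2BK the smallest among the tested H2B genes, while HIST1H1B had the largest fall and HIST1H1E the highest difference among the H1 genes. Capitals mark 3 motifs on either strand: the octamer core, spelled ATTTGCA, the CCAAT box, by the letters of its name, and the TATA box, searched for as TATAAA. Neighbouring matches can overlap. Matches were taken at any place in a window, so a match need not belong to the gene named. The TATA box match of HIST1H2BM lies on the reverse strand, far before the start. It is the same stretch as the TATA box match in the overlapping window of the neighbouring gene HIST1H2AJ.
HIST1H2BM, chr6:27814772-27815071, plus strand: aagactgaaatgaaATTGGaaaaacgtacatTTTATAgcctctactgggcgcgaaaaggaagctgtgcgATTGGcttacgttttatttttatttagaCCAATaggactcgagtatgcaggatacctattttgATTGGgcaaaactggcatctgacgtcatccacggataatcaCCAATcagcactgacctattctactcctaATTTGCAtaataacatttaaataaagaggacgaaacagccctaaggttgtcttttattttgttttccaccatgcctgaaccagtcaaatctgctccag
HIST1H2BK, chr6:27146809-27147108, minus strand: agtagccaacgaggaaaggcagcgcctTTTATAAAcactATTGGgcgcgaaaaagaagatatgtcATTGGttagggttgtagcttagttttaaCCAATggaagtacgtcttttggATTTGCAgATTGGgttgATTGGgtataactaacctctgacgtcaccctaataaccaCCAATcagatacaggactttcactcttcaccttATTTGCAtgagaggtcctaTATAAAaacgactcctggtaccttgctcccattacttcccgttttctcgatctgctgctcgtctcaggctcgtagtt
HIST1H1B, chr6:27867539-27867838, minus strand: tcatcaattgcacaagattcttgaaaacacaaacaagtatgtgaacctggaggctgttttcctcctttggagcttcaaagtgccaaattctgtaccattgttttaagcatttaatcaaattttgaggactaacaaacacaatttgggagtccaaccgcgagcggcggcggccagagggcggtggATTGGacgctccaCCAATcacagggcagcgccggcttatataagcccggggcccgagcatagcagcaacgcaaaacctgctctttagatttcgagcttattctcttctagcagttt
HIST1H1E, chr6:26156079-26156378, plus strand: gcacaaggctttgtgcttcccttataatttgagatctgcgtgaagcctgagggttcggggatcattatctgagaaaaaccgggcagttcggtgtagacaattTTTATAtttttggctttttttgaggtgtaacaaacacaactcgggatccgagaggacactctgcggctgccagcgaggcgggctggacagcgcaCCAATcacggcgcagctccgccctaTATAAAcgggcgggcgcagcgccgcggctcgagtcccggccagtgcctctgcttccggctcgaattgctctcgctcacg

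The octamer core was present in 36.7% of the 60 promoters and in 4.23% of all 27305 RefSeq promoters of the same length. It occurred in 68.8% of the H2A and 69.2% of the H2B windows, in 16.7% of the H3 windows, and in none of the 6 H1 and 13 H4 windows. Windows of neighbouring H2A and H2B genes overlap, so these are not independent counts. Of the 2 H3 windows with the octamer core, that of HIST1H3D is the same window as that of HIST1H2AD. In that of HIST1H3C the match lies after the start. CCAAT was found in 83.3% of the histone promoters and in 35.7% of all promoters, with H4 lowest at 23.1% and every H1, H2A, H2B and H3 window holding it. TATAAA was found in 66.7% against 12% of all promoters.

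Values were the authors' TPM, an abundance per transcript length that sums to the same total in each library and keeps no sequencing depth, so the depth of the libraries is unknown. Differences are given as differentiated minus undifferentiated on the log2(TPM + 1) scale, from limma over the 10180 genes that reached 1 TPM or more in 2 or more libraries. A gene is called where the Benjamini-Hochberg adjusted p over all of them is below 0.05. Of the B lineage markers 10 of 10 were called lower, with a summed level of 15.98 to 17.5 TPM in differentiated and 282.8 to 488.2 TPM in undifferentiated libraries, and 10 of 10 macrophage markers were called higher. Of these, 4 B lineage markers passed the filter through undifferentiated libraries alone and 8 macrophage markers through differentiated libraries alone, which fixed their direction. None of 8 T and NK cell markers and none of 8 epithelial and fibroblast markers reached the level for testing, and their sums stayed at or under 2.55 and 0.58 TPM. Among 8 erythroid and platelet markers PPBP alone was tested, at 22.6 and 23.7 TPM in differentiated cells and 0.09 and 0 TPM in undifferentiated cells.

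Histone cluster RNA fell on differentiation. The 76 genes summed to 6801 and 7267 TPM in the undifferentiated libraries and to 752.1 and 873.0 TPM in the differentiated ones. Means were 7034 ± 329.5 and 812.5 ± 85.5 TPM (SD, n = 2 each), a ratio of 8.66. Both differentiated sums lay far under both undifferentiated sums. Protein-coding genes made up 12.2%, 13.5%, 23.0% and 15.6% of the TPM of differentiated replicates 1 and 2 and undifferentiated replicates 1 and 2. Taken as a share of that protein-coding part, the histone genes made up 0.617% and 0.647% in differentiated and 2.96% and 4.66% in undifferentiated libraries, a ratio of 6.02. In bulk RNA a smaller share of cells in S phase and less histone RNA per cell cannot be told apart.

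Of the 76 genes, 59 were tested: 53 fell, 1 rose and 5 were not called. Among all genes tested, 22.8% were called lower and 18.6% higher. The median log2 difference of the 59 was -2.89 (range -5.29 to 1.07), and that of all 10180 genes was -0.14. In 56 of the 59 both differentiated libraries lay below both undifferentiated ones, which held for 39.0% of all genes tested, and in 2 (HIST1H1E and HIST2H4B) both lay above, which held for 31.0%. The 6 genes HIST1H1D, HIST1H3G, HIST2H3A, HIST2H3C, HIST1H4F and HIST1H4I passed the filter through the undifferentiated libraries alone and so had to be lower. Among the 53 that reached 1 TPM at both stages, 47 were called lower, 1 higher and 5 neither, where 18.9% and 10.6% of such genes in the whole table were called lower and higher. The number called lower dropped when either differentiated library was left out. Such a run leaves 1 library in a stage. The share of all genes called in it is not given, so this drop cannot be read as particular to histone genes. The number called higher, 1 gene, ranged from 0 to 3 when a library was left out: it was 0 without differentiated replicate 1, differentiated replicate 2 or undifferentiated replicate 2, and 3 without undifferentiated replicate 1.

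The 17 genes that were not tested stood at or under 2.62 TPM in every library, and 9 of them were listed at 0 throughout. They included all 4 HIST3 genes: HIST3H2A was listed at 0.07 TPM in differentiated replicate 1 and HIST3H2BB at 0.03 TPM in differentiated replicate 2, and both at 0 elsewhere, while HIST3H2BA and HIST3H3 were listed at 0 in all libraries. HIST1H3E stood at 0.96 and 1.61 TPM in differentiated and at 0.29 and 0.36 TPM in undifferentiated cells. The row of HIST1H3D with the shorter model (ENSG00000197409) stood at 0.85 and 2.62 TPM in differentiated cells and was listed at 0 in undifferentiated ones. Both H3 rows lay higher in differentiated libraries, at low levels. None of the windows of the shorter HIST1H3D row were unique (0.0%), and it overlaps the other HIST1H3D row, which fell, on the same strand, so its level is uncertain.

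The plot of mean levels at each stage places nearly all expressed histone genes below the line of equal levels, at low and high levels alike.

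**Figure D1:**
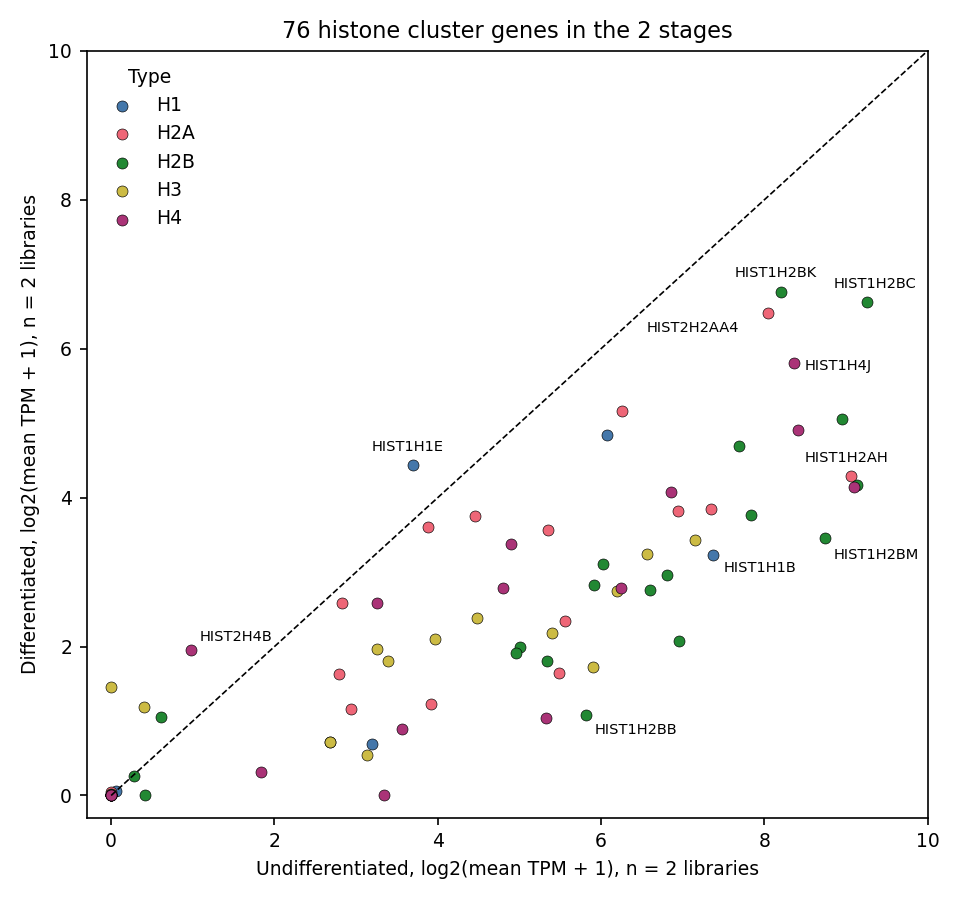
Mean level of each of the 76 histone cluster genes in undifferentiated (horizontal axis) and differentiated cells (vertical axis), as log2(mean TPM + 1) over 2 libraries per stage, coloured by histone type, with a dashed line of equal levels. Of the genes tested, 53 were called lower in differentiated cells, and HIST1H1E and HIST2H4B are the 2 tested genes with both differentiated libraries above both undifferentiated ones.

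All 5 types fell in summed level, and their sizes differed. H4 summed to 136.1 and 159.3 TPM in differentiated and 1520 and 1537 TPM in undifferentiated libraries, a ratio of 10.4. H3 summed to 43.8 and 51.1 against 529.8 and 428.7 TPM, a ratio of 10.1. H2B, the most abundant type, summed to 311.9 and 371.9 against 3177 and 3674 TPM, a ratio of 10.0. These 3 types thus kept nearly the same proportions to each other at both stages. The sum of H2B over that of H4 was 2.29 and 2.34 in differentiated and 2.09 and 2.39 in undifferentiated libraries, and H3 over H4 was 0.322 and 0.321 against 0.349 and 0.279. The H3 over H4 values of the 2 stages overlapped, as did those of H2B over H4.

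H2A and the linker histone H1 fell less. H2A summed to 204.3 and 232.3 TPM in differentiated and 1308 and 1392 TPM in undifferentiated libraries, a ratio of 6.18. H1 summed to 55.9 and 58.4 against 266.1 and 235.3 TPM, a ratio of 4.39. The sum of H2B over H2A was 1.53 and 1.60 in differentiated cells and 2.43 and 2.64 in undifferentiated cells, and H1 over H2B was 0.179 and 0.157 against 0.0838 and 0.0640. Both ratios are taken within a library and do not depend on how the libraries are scaled, and in both the stages did not overlap.

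**Figure D2:**
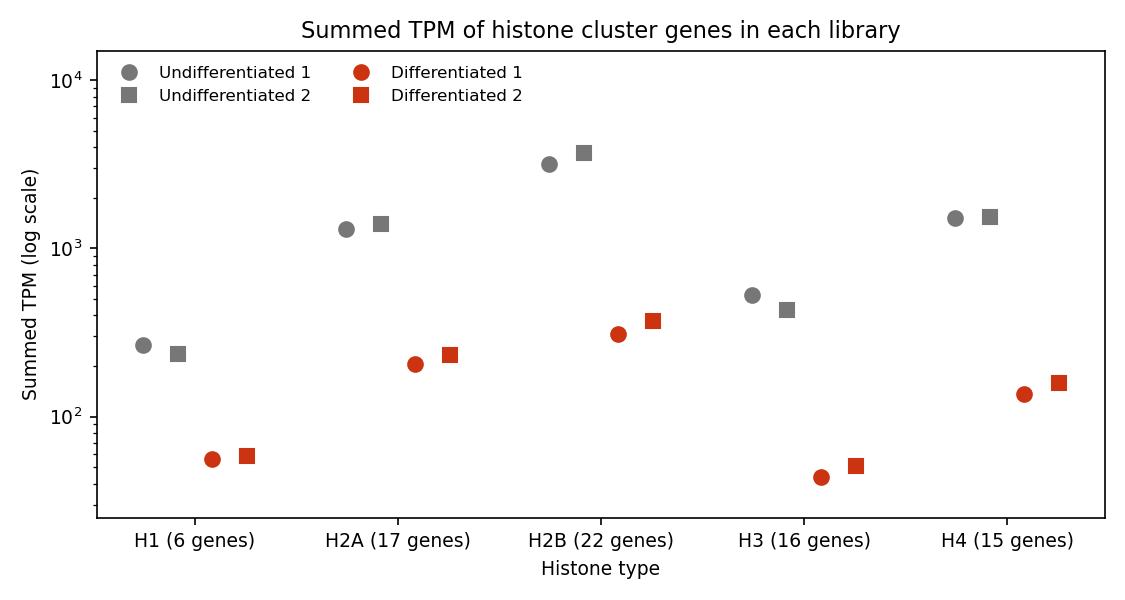
Summed TPM of the genes of each histone type in each of the 4 libraries, on a log scale. Each type lies lower in both differentiated libraries (red) than in both undifferentiated ones (grey), with undifferentiated to differentiated ratios of 4.39 for H1, 6.18 for H2A, 10.0 for H2B, 10.1 for H3 and 10.4 for H4.

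The clusters also differed in size. HIST1, the large cluster on chromosome 6, summed to 594.5 and 679.2 TPM in differentiated and 6120 and 6508 TPM in undifferentiated cells, a ratio of 9.91, and 44 of its 48 tested genes fell (median log2 difference -3.10). HIST2 summed to 153.4 and 187.8 against 672.1 and 750.2 TPM, a ratio of 4.17, and of its 10 tested genes 9 fell and 1 rose (median -1.94). HIST2 therefore made up 20.4% and 21.5% of all histone cluster TPM in differentiated cells and 9.88% and 10.3% in undifferentiated cells. For the H2A genes the ratio was 2.77 in HIST2 and 10.7 in HIST1. For H2B the ratios were 8.0 in HIST2 and 10.2 in HIST1. HIST4H4, the single gene of the HIST4 cluster on chromosome 12, stood at 4.10 and 5.89 TPM in differentiated and 8.60 and 8.58 TPM in undifferentiated cells, a log2 difference of -0.69 (SE 0.38, limma adjusted p = 0.168).

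Among the H2B genes, which form the nucleosome core with H2A, all 16 that were tested fell, and 15 of them were called under each of the 13 other settings tried. HIST1H2BM stood at 10.1 and 9.77 TPM in differentiated and 416.4 and 437.0 TPM in undifferentiated cells. Its log2 difference of -5.29 (SE 0.35, limma adjusted p = 2.54e-07) was the largest fall of any member tested. HIST1H2BL was listed at 16.9 TPM in both differentiated libraries and at 478.5 and 638.7 TPM in undifferentiated ones, with a log2 difference of -4.95 (SE 0.35, limma adjusted p = 5.21e-07). For both genes the stages were far apart, with ratios of means of 43.0 and 33.0. The largest ratio of means belonged to HIST1H2BB, which stood at 1.04 and 1.18 against 50.2 and 60.5 TPM, a ratio of 49.9.

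HIST1H2BC was the most abundant member in both undifferentiated libraries, at 567.0 and 655.4 TPM, and fell to 91.3 and 103.9 TPM, a log2 difference of -2.63 (SE 0.33, limma adjusted p = 4.12e-05). HIST1H2BD stood at 449.2 and 536.2 TPM and fell to 30.6 and 33.9 TPM, a log2 difference of -3.89 (SE 0.34). HIST1H2BK fell least among the H2B genes, from 262.1 and 324.8 TPM to 94.0 and 121.1 TPM, a log2 difference of -1.44 (SE 0.34, limma adjusted p = 0.00429). HIST1H2BK was thereby the most abundant member in both differentiated libraries. Its share of all H2B TPM was 30.1% and 32.6% in differentiated and 8.25% and 8.84% in undifferentiated cells, while HIST1H2BM and HIST1H2BL together went from 28.2% and 29.3% in undifferentiated to 8.67% and 7.18% in differentiated cells. The call of HIST1H2BK was lost without differentiated replicate 1 (adjusted p = 0.157), without differentiated replicate 2 (adjusted p = 0.0907), with no filter and in a test against a log2 difference of 1. Of the 50-base windows of its annotated model 25.9% occur nowhere else in the annotated transcripts, so its level is less certain than that of HIST1H2BM, with 100% unique windows.

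Among the H2A genes, 11 of 14 tested fell and 3 were not called. HIST1H2AH stood at 20.1 and 17.0 TPM in differentiated and 505.2 and 559.5 TPM in undifferentiated cells, a log2 difference of -4.77 (SE 0.34, limma adjusted p = 5.96e-07). HIST1H2AK stood at 2.00 and 2.24 against 41.2 and 46.6 TPM (log2 difference -3.85, SE 0.37). HIST1H2AL and HIST1H2AE, at 161.0 ± 21.6 and 122.0 ± 3.76 TPM in undifferentiated cells, fell to 13.3 ± 3.32 and 13.2 ± 1.27 TPM (SD, n = 2). HIST1H2AH made up 38.6% and 40.2% of all H2A TPM before and 9.84% and 7.31% after differentiation.

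HIST2H2AA4 took the place of the leading H2A gene in differentiated cells. It stood at 82.9 and 93.3 TPM there and at 272.0 and 252.2 TPM in undifferentiated cells, a log2 difference of -1.56 (SE 0.33, limma adjusted p = 0.00213). The call was lost without differentiated replicate 1 (adjusted p = 0.108), without differentiated replicate 2 (adjusted p = 0.0841) and in a test against a log2 difference of 1. Its share of H2A TPM was 40.6% and 40.2% in differentiated against 20.8% and 18.1% in undifferentiated cells. Its near-identical copy HIST2H2AA3 was listed at 0 in all libraries and 2.9% of the windows of HIST2H2AA4 were unique, so the value cannot be assigned to either copy alone. The HIST2 genes together made up 55.7% and 57.9% of H2A TPM in differentiated and 26.9% and 24.2% in undifferentiated cells.

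The 3 H2A genes that were not called were HIST1H2AC, HIST1H2AI and HIST1H2AD. HIST1H2AC stood at 11.5 and 13.4 against 18.4 and 23.4 TPM (log2 difference -0.70, SE 0.37, adjusted p = 0.154), and HIST1H2AI at 10.5 and 11.8 against 13.7 TPM in both undifferentiated libraries (log2 difference -0.28, SE 0.37, adjusted p = 0.586). In both the differentiated libraries were the lower ones, by little. HIST1H2AC was called lower without undifferentiated replicate 1 (adjusted p = 0.0364), and HIST1H2AI turned to a log2 difference of 0.01 with quantile normalization and 0.26 over protein-coding genes, not called in either. HIST1H2AD was the single tested member whose stages overlapped, at 6.06 and 3.99 against 11.2 and 0.99 TPM. It overlaps a HIST1H3D row on the same strand, and 2.0% of its windows were unique. It was called higher without undifferentiated replicate 1 (log2 difference 1.58, adjusted p = 0.014) and lower without undifferentiated replicate 2 (log2 difference -1.03, adjusted p = 0.0386).

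Many H2A and H2B genes lie side by side and are transcribed away from each other from nearby starts. In the annotation 11 such pairs had starts 219 to 331 bases apart, and in 9 of them both genes were tested. Both genes fell in 6 of the 9. The H2B gene had the larger fall in 7 of the 9 pairs. The widest gap of this kind was in the pair HIST1H2BL and HIST1H2AI, with log2 differences of -4.95 and -0.28. HIST1H2BM and HIST1H2AJ differed by -5.29 and -3.27. The pair HIST1H2BG and HIST1H2AE moved alike, with -3.08 and -3.12.

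The pair HIST1H2BK and HIST1H2AH ran the other way. The H2A gene had a log2 difference of -4.77 and the H2B gene -1.44, from starts 331 bases apart, and at the undifferentiated stage HIST1H2AH was the more abundant of the 2 while at the differentiated stage HIST1H2BK was. Differences between the genes of a pair were not tested, and several of these genes share sequence with copies elsewhere: unique windows were 2.0% for HIST1H2AD, 13.7% for HIST1H2AM, 16.3% for HIST1H2AJ, 37.7% for HIST1H2AI and 25.9% for HIST1H2BK. In 4 of the 7 pairs with the larger fall in the H2B gene, the H2A gene was thus under 50% unique.

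**Figure D3:**
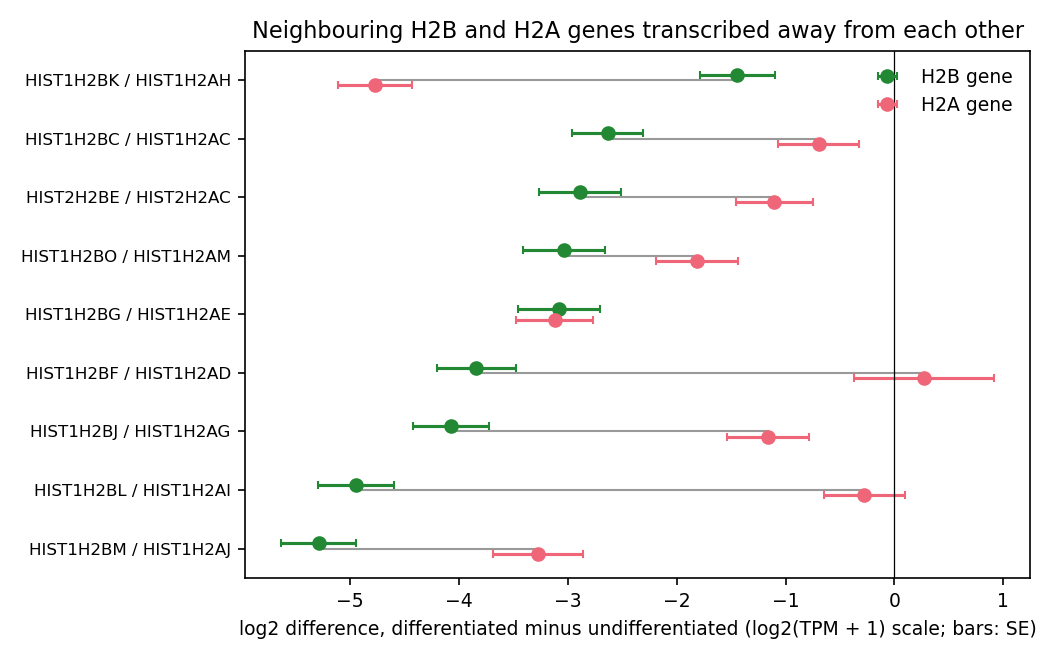
Log2 difference (differentiated minus undifferentiated, log2(TPM + 1) scale, bars SE) of the H2B and the H2A gene in the 9 neighbouring divergent pairs with both genes tested. In 7 pairs the H2B gene lies further to the left, and HIST1H2BK with HIST1H2AH shows the opposite order, at -1.44 and -4.77.

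Among the H4 genes, whose protein is the same for nearly all members, 11 of 13 tested fell. HIST1H4L stood at 13.9 and 19.4 TPM in differentiated and 486.1 and 606.0 TPM in undifferentiated cells, a log2 difference of -4.96 (SE 0.36, limma adjusted p = 5.96e-07). HIST1H4H stood at 25.3 and 33.0 against 418.5 and 260.2 TPM (log2 difference -3.47, SE 0.37), HIST1H4C at 15.4 and 16.4 against 102.2 and 126.6 TPM (-2.76, SE 0.36), and HIST1H4A at 0.79 and 1.32 against 32.7 and 45.5 TPM (-4.28, SE 0.39). HIST1H4J fell from 332.4 and 322.3 TPM to 53.8 and 55.8 TPM (log2 difference -2.56, SE 0.33) and was the leading H4 gene of differentiated cells. It held 39.5% and 35.0% of H4 TPM there, while HIST1H4L led in undifferentiated cells with 32.0% and 39.4%. HIST1H4K was listed at 0 in all libraries, with no unique window, and 18.8% of the windows of HIST1H4J were unique. HIST1H4F was listed at 0 in both differentiated libraries and at 11.7 and 6.62 TPM in undifferentiated ones.

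HIST2H4B was the 1 member called higher. It stood at 3.24 and 2.52 TPM in differentiated and 1.68 and 0.26 TPM in undifferentiated cells, a log2 difference of 1.07 (SE 0.38, limma adjusted p = 0.0367). Of the 12 other settings that tested it, 6 lost the call. These were the runs without differentiated replicate 1, without differentiated replicate 2 and without undifferentiated replicate 2. It was also lost with no filter, with no variance trend and in a test against a log2 difference of 1. Its near-identical copy HIST2H4A stood at 4.74 and 7.08 against 59.0 and 90.4 TPM, and 2.8% of the windows of HIST2H4B were unique. Summed over both copies, which does not depend on how reads were split between them, the level was 7.98 and 9.60 TPM in differentiated and 60.7 and 90.7 TPM in undifferentiated cells. The rise of HIST2H4B is thus uncertain.

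Among the H3 genes all 12 tested fell. HIST1H3C stood at 9.19 and 10.4 TPM in differentiated and 158.3 and 124.0 TPM in undifferentiated cells, a log2 difference of -3.71 (SE 0.36, limma adjusted p = 7.12e-06). HIST1H3I stood at 6.5 and 10.4 against 107.6 and 79.1 TPM (log2 difference -3.34, SE 0.39). HIST1H3J stood at 2.02 and 2.61 against 80.4 and 37.0 TPM (-4.07, SE 0.43). Of these 3 genes HIST1H3J had the widest spread among undifferentiated libraries, yet no differentiated library came near. The other HIST1H3D row (ENSG00000282988), which GENCODE 29 names AL031777.3 and which overlaps HIST1H3D and HIST1H2AD, stood at 6.78 and 4.63 against 69.4 and 74.5 TPM. HIST2H3A and HIST2H3C had the same value in each library, 0.52 and 0.76 against 5.54 and 5.29 TPM, and are counted as 2 rows of which neither can be read alone.

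H1 genes, which bind the DNA between nucleosomes, changed in their make-up as well as in level. HIST1H1B stood at 8.54 and 8.19 TPM in differentiated and 157.2 and 171.5 TPM in undifferentiated cells, a log2 difference of -4.14 (SE 0.35, limma adjusted p = 2.74e-06). HIST1H1D stood at 0.62 TPM in both differentiated and at 8.84 and 7.44 TPM in undifferentiated libraries (log2 difference -2.49, SE 0.37), and its call was lost without either differentiated library (adjusted p = 0.0817 without replicate 1 and 0.082 without replicate 2). HIST1H1C stood at 24.9 and 30.2 against 86.8 and 45.6 TPM, a log2 difference of -1.17 (SE 0.40, limma adjusted p = 0.0317). Its undifferentiated libraries lay far apart, and the call was lost under 7 of the 13 other settings, including without differentiated replicate 1, differentiated replicate 2 or undifferentiated replicate 1.

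HIST1H1E lay higher in differentiated cells, at 21.8 and 19.5 TPM against 13.3 and 10.6 TPM, without overlap. Its log2 difference was 0.74 (SE 0.37, limma adjusted p = 0.128), so it was not called on the deposited scale. Other scalings called it higher: median of ratios (adjusted p = 0.0164), quantile normalization (adjusted p = 0.0101) and rescaling over protein-coding genes (adjusted p = 0.00273). It was also called higher without undifferentiated replicate 1 (adjusted p = 0.0309). HIST1H1E made up 38.9% and 33.3% of H1 TPM in differentiated and 5.00% and 4.52% in undifferentiated cells. HIST1H1B went the other way, from 59.1% and 72.9% in undifferentiated to 15.3% and 14.0% in differentiated cells. HIST1H1C and HIST1H1E together made up 83.5% and 84.9% of H1 TPM in differentiated and 37.6% and 23.9% in undifferentiated cells. All windows of these 3 genes were unique, and these shares do not depend on the scaling of a library.

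**Figure D4:**
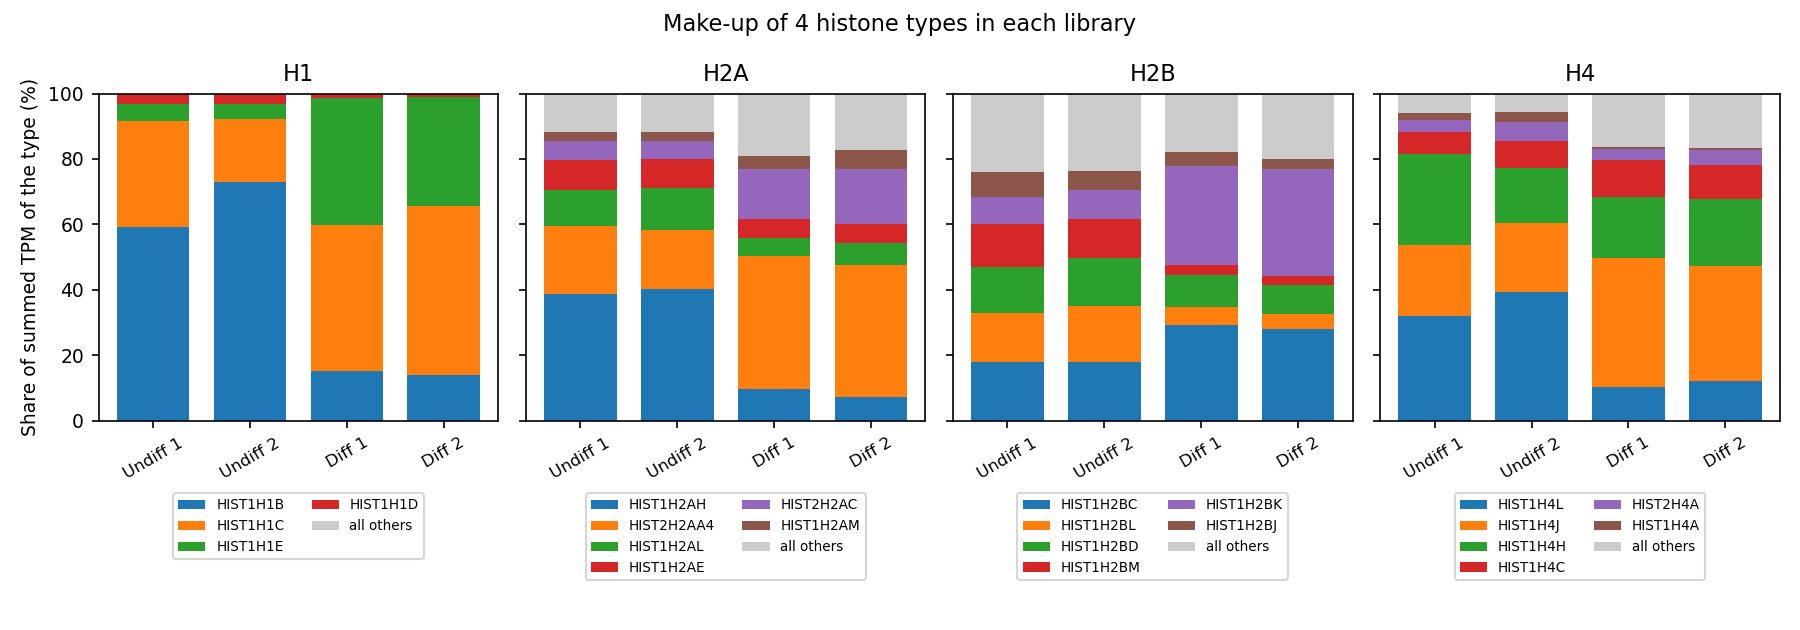
Share of each type's summed TPM held by its most abundant genes in each library, in percent, for H1, H2A, H2B and H4, with all other members in grey. In differentiated libraries HIST1H1E, HIST2H2AA4, HIST1H2BK and HIST1H4J hold larger shares, and HIST1H1B, HIST1H2AH, HIST1H2BM and HIST1H4L smaller ones, than in undifferentiated libraries.

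Among members with at least 90% unique windows, 38 of 41 tested fell and limma called 0 higher (0 at an unadjusted p under 0.05), with a median log2 difference of -3.08. Of the 41, 4 had passed the filter through undifferentiated libraries alone, which fixed their direction, and 34 of the other 37 fell. Genes whose annotated model is spliced or runs well past the stem-loop, which can give polyadenylated RNA, fell in 21 of 24 tested (median -2.95), and those with short models in 32 of 35 (median -2.76). Of these, 4 with long or spliced models and 2 with short models had passed through undifferentiated libraries alone. Without them, 17 of 20 and 30 of 33 fell. Among members with a mean of at least 10 TPM over the libraries, 40 of 43 fell and 3 were not called. A mean over all libraries lets a gene in through the stage where it is high, so this count is no separate support for a fall. Of the 53 genes called lower, 33 were called under each of the 13 other settings, among them 15 of the 16 H2B genes, 5 of 12 H3, 5 of 11 H2A, 7 of 11 H4 and 1 of 3 H1 genes. TPM depends on the model lengths used, and the short models here run from 297 bases, so levels of different histone genes compare less surely than stages of 1 gene. The tested genes with an octamer core in the promoter window had a median log2 difference of -3.02 (19 genes, 17 called lower). Those without it had -2.10 (29 genes, 25 called lower), and the ranges overlapped widely. The octamer core was in most matched H2A and H2B windows and in no H1 or H4 window, so motif and histone type were not separated here. The genes with it included HIST1H3C, whose match lies after the start.

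Replication-independent histone variants, whose expression is generally not confined to S phase and whose mRNAs are mostly polyadenylated, were compared next. Of 10 tested, 6 fell, 1 rose and 3 were not called (median log2 difference -1.15), where 22.8% of all genes tested were called lower and 18.6% higher. Their summed level was 2.67 times higher in undifferentiated cells. H2AFZ, which encodes H2A.Z, stood at 5.30 and 6.73 against 112.1 and 34.6 TPM (log2 difference -3.18, SE 0.49). H2AFJ rose from 0.86 and 0.68 to 3.56 and 3.59 TPM, a log2 difference of 1.37 (SE 0.32). H2AFJ passed the filter through differentiated libraries alone and CENPA, among the 6, through undifferentiated libraries alone, so the filter fixed their direction. The calls of H2AFZ and H2AFJ were lost without differentiated replicate 1 (adjusted p = 0.0822 and 0.067) and without differentiated replicate 2 (0.0627 and 0.0687). The genes for the replacement histone H3.3, H3F3A and H3F3B, had log2 differences of -0.60 and -0.50 and were not called. The summed level of the cluster H3 genes over that of the replication-independent H3 genes was 3.70 and 4.92 in undifferentiated and 0.674 and 0.623 in differentiated libraries, so the replication-independent H3 genes held the larger part after differentiation.

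Genes that act in S phase fell with the histone genes. Of 26 tested, 25 fell and 1 was not called (median log2 difference -2.50), where 22.8% of all genes tested were called lower. Of the 26, 12 had passed the filter through undifferentiated libraries alone. MCM4, a subunit of the replicative helicase, fell from 387.3 and 220.2 to 9.58 and 12.7 TPM, a log2 difference of -4.60 (SE 0.39, limma adjusted p = 2.51e-06). The summed S phase genes were 14.3 times higher in undifferentiated cells, against 8.66 for the histone genes. The sum of the histone genes over that of the S phase genes was 14.6 and 14.1 in differentiated and 6.77 and 11.7 in undifferentiated libraries, without overlap. Summed histone RNA thus lay higher relative to this sum after differentiation. MCM4 and PCNA (198.7 and 121.5 TPM) weigh most in the undifferentiated S phase sums of 1005 and 621.8 TPM. By gene, the median log2 difference was -2.89 for the histone genes and -2.50 for the S phase genes. The added 1 TPM of that scale shrinks differences of genes with low levels. Under 1 TPM in both differentiated libraries were 12 of the 26 S phase genes and 6 of the 59 tested histone genes. These medians therefore do not order the sets.

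Of 11 tested factors that act in histone gene transcription, 4 fell and 7 were not called (median log2 difference -0.84), where 22.8% of all genes tested were called lower. Of these 11, CASP8AP2 passed the filter through undifferentiated libraries alone, which fixed its direction. NPAT, the coactivator of histone loci that cyclin E with CDK2 phosphorylates, stood at 3.40 and 2.06 against 5.05 and 3.0 TPM with overlapping stages (log2 difference -0.42, SE 0.40, limma adjusted p = 0.433). Its direction turned to 0.0094 after rescaling over protein-coding genes. CASP8AP2, which takes part in histone gene transcription at the histone locus body, fell from 3.73 and 1.84 to 0.56 and 0.43 TPM (log2 difference -1.29, SE 0.31). CCNE2, which encodes a cyclin E, fell from 13.0 and 7.18 to 0.31 and 1.03 TPM (-2.71, SE 0.42). The calls of both were lost without differentiated replicate 1 (adjusted p = 0.159 for CASP8AP2 and 0.104 for CCNE2) and without differentiated replicate 2 (0.212 and 0.0608).

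Among factors of histone mRNA 3′ end processing, 9 of 15 tested fell and 6 were not called (median log2 difference -1.12), where 22.8% of all genes tested were called lower. The 9 were SNRPB, SNRPD3, SNRPE, SNRPF, SNRPG, CPSF3, CSTF2, SRRT and NCBP2. Like SLBP, ZNF473 and LSM10 were not called, and LSM11 was not tested. LSM10 lay higher in differentiated libraries, at 6.88 and 8.30 against 4.94 and 3.94 TPM. SLBP stood at 3.99 and 4.35 TPM in differentiated and 16.4 and 6.33 TPM in undifferentiated cells, a log2 difference of -1.13 (SE 0.45, limma adjusted p = 0.0602), and was not called. Both differentiated libraries lay lower. It was called lower without undifferentiated replicate 2 (adjusted p = 0.00393), with quantile normalization (adjusted p = 0.0173) and with median-of-ratios scaling (adjusted p = 0.0204). SNRPG, an Sm protein of the U7 and spliceosomal particles, fell from 91.5 and 84.6 to 10.3 and 7.36 TPM (log2 difference -3.19, SE 0.37). RNU7-1, the gene of U7 RNA itself, was listed at 0 in all 4 libraries, so it gives no comparison.

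Factors of histone mRNA translation and decay gave 1 fall, 1 rise and 8 genes not called among 10 tested (median log2 difference -0.57). Among all genes tested 22.8% were called lower and 18.6% higher, and neither count exceeded these shares. ERI1, an exonuclease that trims the stem-loop end, fell from 2.92 and 3.66 to 0.98 and 1.14 TPM (log2 difference -1.05, SE 0.33, limma adjusted p = 0.0225), a call lost without differentiated replicate 1 (adjusted p = 0.353) and without differentiated replicate 2 (adjusted p = 0.301). ZCCHC6, also named TUT7, which adds uridines to RNA ends, rose from 3.12 and 2.19 to 24.5 and 24.97 TPM, a log2 difference of 2.83 (SE 0.38, limma adjusted p = 7.04e-05). Without differentiated replicate 1 or differentiated replicate 2 its adjusted p was 0.0557 and 0.0578.

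Histone chaperones and assembly factors fell in 13 of 15 tested, with 2 not called (median log2 difference -1.59), where 22.8% of all genes tested were called lower. Of the 15, 2 had passed the filter through undifferentiated libraries alone. NASP, which binds H3 and H4 before their deposition and also linker histones, fell from 217.6 and 138.6 to 14.3 and 11.7 TPM, a log2 difference of -3.65 (SE 0.38, limma adjusted p = 1.12e-05). ASF1B, an H3 and H4 chaperone of proliferating cells, fell from 8.42 and 8.49 to 1.77 and 1.14 TPM (log2 difference -1.96, SE 0.38, adjusted p = 0.00117), a call lost without differentiated replicate 1 (adjusted p = 0.112) and without differentiated replicate 2 (adjusted p = 0.166). The chaperone sum was 4.49 times higher in undifferentiated cells. Whether the change in these factors bears on the level of histone RNA was not tested.

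**Figure D5:**
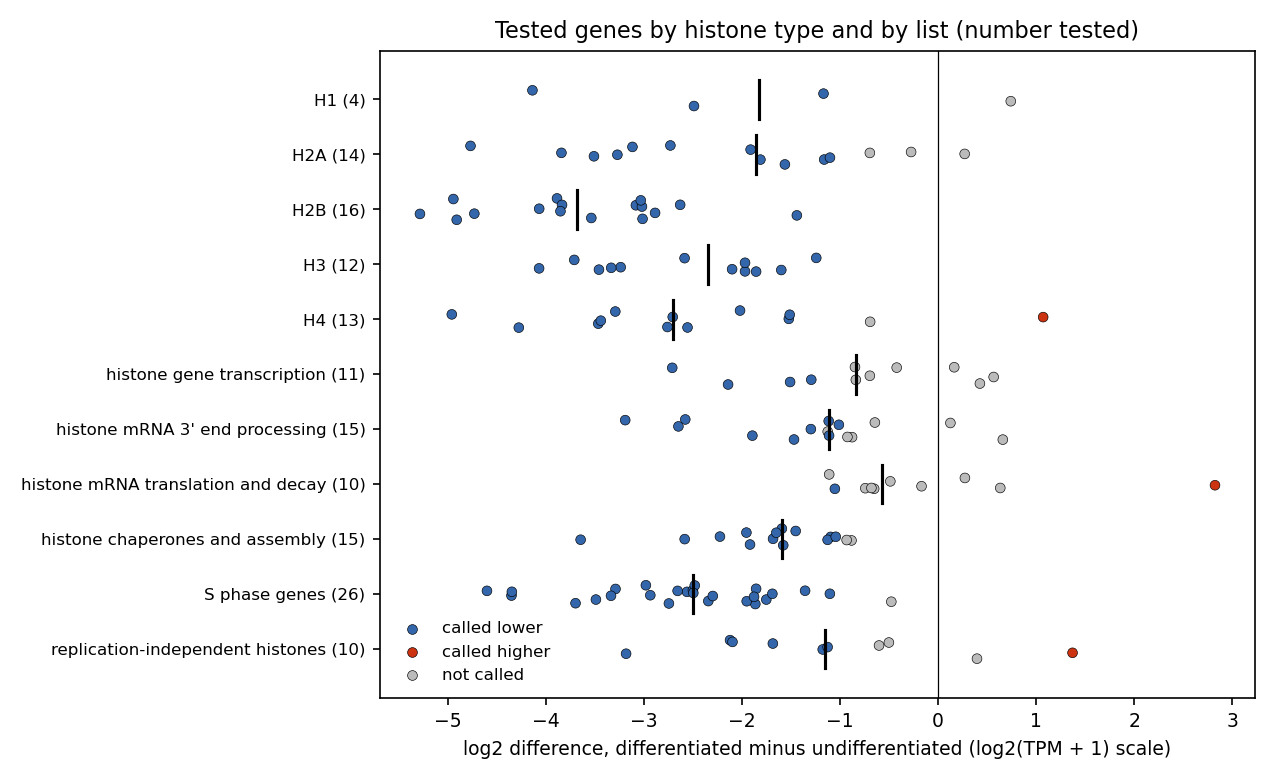
Log2 difference (differentiated minus undifferentiated, log2(TPM + 1) scale) of each tested gene, by histone type and by list, coloured by its call, with a bar at the median. The medians of H2B at -3.69 and H4 at -2.71 lie further from 0 than those of the lists for transcription at -0.84 and for translation and decay at -0.57. Those of H1 at -1.83, H2A at -1.86 and H3 at -2.35 lie nearer 0 than that of the S phase genes at -2.50.

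Rescaling over protein-coding genes moved the median of all tested genes from -0.14 to 0.37 and the shares called lower and higher from 22.8% and 18.6% to 18.0% and 34.3%, while the median of the histone genes was -2.69 and 52 of 61 tested were called lower. After median-of-ratios scaling the medians were 0.04 for all genes and -2.68 for the histone genes, and after quantile normalization -0.08 and -2.65. The 4 called higher over protein-coding genes were HIST1H1E, HIST2H4B, HIST1H3E and the shorter HIST1H3D row. That HIST1H3D row, listed at 0 in both undifferentiated libraries, passed the filter through differentiated libraries alone, which fixed its direction. Median-of-ratios scaling left 52 of 59 called lower and 2 called higher, beside 26.0% and 28.6% of all genes. With no filter on low values limma called 43 of 67 lower, beside 1.96% of all genes, and 0 higher (3 at an unadjusted p under 0.05), beside 2.35%. Of the 53 called lower on the deposited scale, 52 were also called lower after rescaling over protein-coding genes.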

How the data were processed

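RNA of 2 differentiated and 2 undifferentiated BLaER1 libraries was made into stranded libraries from total RNA, per the labels' protocols. The authors deposited TPM values in 1 table, made with Trimmomatic, STAR and RSEM, per the submitters' processing notes. No version, setting, genome build or annotation is given in the sources used here. RSEM splits ambiguous reads among copies, so sums over copies were used beside single genes. TPM divides estimated reads by length, gives each library the same sum and keeps no depth, so counting error and detection limits are unknown.

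Stages were taken from the labels. The 10180 genes that reached 1 TPM in 2 or more libraries were compared on log2(TPM + 1) with limma 3.58.1 in R 4.3.3 (mean-variance trend, two-sided, 2 residual and 10.9 prior degrees of freedom, Benjamini-Hochberg over all, threshold 0.05). Sums and shares have no test, since the smallest p of an exact permutation test with 2 libraries a stage is 0.333. The procedure was tested on simulated data. Gene types, models, stem-loops and shared windows came from GENCODE 29 (58039 of 58302 identifiers found), promoters from RefSeq.

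Members and gene lists were chosen with earlier results of these data known. Named members are the 4 most abundant of each type, the 2 largest falls and rises called, and those of HIST3 and HIST4; named pathway genes are SLBP, NPAT, CASP8AP2, RNU7-1, ERI1 and ASF1B and the called extremes of each list. Other genes were chosen after their values were seen. Alternatives changed the scaling, pseudocount, filter, variance model, test and design, or left out 1 library.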

Additional observations from a re-analysis of the deposited data

How the results depend on the processing

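The summed histone level and most calls kept their direction under the alternatives run. The count of members called lower, 53, was 51 after quantile normalization, 52 after median-of-ratios scaling, 52 over protein-coding genes, 53 with a pseudocount of 0.1 or no variance trend, 43 with no filter, 52 with at least 5 TPM and 38 in a test against a log2 difference of 1. It ranged from 33 to 53 with 1 library left out: 33 without differentiated replicate 1, 35 without differentiated replicate 2, 52 and 53 without undifferentiated replicates 1 and 2. The count called higher, 1, was 2 after quantile normalization or median-of-ratios scaling, 4 over protein-coding genes, and 0 by limma with no filter (3 at an unadjusted p under 0.05), no variance trend (2), at least 5 TPM (0) or a test against a log2 difference of 1 (0), and ranged from 0 to 3 with 1 library left out. The log2 ratio of the summed level, differentiated over undifferentiated, was -3.11 as deposited, -2.96 after median-of-ratios scaling, -2.59 over protein-coding genes and -3.23 without members that share a protein sequence or a near-identical copy, and ranged from -3.23 to -3.01 with 1 library left out. NPAT turned to 0.0094 over protein-coding genes (adjusted p = 0.985). Among genes not called, HIST1H2AI also turned, to 0.01 with quantile normalization and 0.26 over protein-coding genes, and HIST1H2AD to -1.03 without undifferentiated replicate 2.

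With the replicate number as a block 50 members were called lower and 1 higher. Deviations of libraries with the same number correlated at -0.024 over genes. This value cannot settle whether libraries with the same number were prepared as pairs. HIST1H1C lost its call with the replicate block (adjusted p = 0.0642). With 2 libraries a stage and no depth in TPM, many calls changed when a single library was left out, among them those of HIST1H1C, HIST1H1D, HIST1H1E, HIST1H2AC, HIST1H2AD, HIST2H2AA4, HIST1H2BK and HIST2H4B, and reads shared by near-identical copies limit single-gene levels. The causes of these changes were not tested. Shares of all genes called are given only for the deposited scale, median-of-ratios scaling, rescaling over protein-coding genes and the run with no filter. Counts of members called under the other settings therefore cannot be set against all genes.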
